A study of Mus musculus with 12 samples.

Results

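Carriers that bring organic ions into hepatocytes were followed through 7 genes in livers of male mice, out of 18193 genes measured. The members were chosen by gene family and liver function, at a time when earlier results of these data were known. They were Slco1a1, Slco1a4, Slco1b2, Slco2b1, Slc10a1, Slc22a5 and Slc22a7, and each was read from the brightest of the probe sets that name it alone. The 7 genes had 16 such probe sets, and all 7 main probe sets lay above the median of all probe sets.

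The 12 arrays formed 4 groups of 3. Nrf2 null mice, which lack the transcription factor encoded by Nfe2l2, received CDDO-Im (30 uM/kg by gavage, as the labels write the dose) or vehicle, and so did wild type mice. The labels give 6 hours for all 4 groups. CDDO-Im is a synthetic triterpenoid that releases Nrf2 from its inhibitor Keap1. The labels name no strain, age or null allele, and nothing there says that each array came from its own animal, so the p-values reflect only how these arrays vary, which may be technical. Every vehicle title carries a bracketed digit 2 that no CDDO-Im title carries, so a difference that it stands for and the effect of CDDO-Im cannot be told apart. Values are log2 intensities, so 1 unit is a doubling of signal, and levels are compared between groups for the same probe set only.

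Hepatocytes take bile acids, bilirubin, conjugated steroids, drugs and carnitine from sinusoidal blood through solute carriers in the basolateral membrane, and pass many of them to export pumps facing bile. Slc10a1 encodes Ntcp, which takes up conjugated bile acids together with sodium. The Slco genes encode organic anion transporting polypeptides, which work without sodium and have broad and overlapping substrates. Slc22a5 encodes the carnitine transporter Octn2, and Slc22a7 the organic anion transporter Oat2. Nuclear receptors, among them Hnf4a, are known to set the basal level of several of these genes.

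RefSeq promoter windows (mouse build GRCm38.p6, from 250 bases before to 50 bases after a transcript start) were found for 6 of the 7 genes, 9 windows in all. They are shown for 3 bile acid and anion carriers whose transcripts were higher with CDDO-Im in Nrf2 null livers, and for Slc22a5. Values of Slc22a5 did not overlap between the genotypes under either treatment, though neither genotype difference passed the adjusted test used below. Capitals mark matches to GCGTG, the core bound by the aryl hydrocarbon receptor, in Slc22a5. The windows are Slco1a1 at chr6:141946913-141947212 (minus strand), Slco1b2 at chr6:141629268-141629567 (plus strand), Slc10a1 at chr12:80968656-80968955 (minus strand) and Slc22a5 at chr11:53891654-53891953 (minus strand).
Slco1a1: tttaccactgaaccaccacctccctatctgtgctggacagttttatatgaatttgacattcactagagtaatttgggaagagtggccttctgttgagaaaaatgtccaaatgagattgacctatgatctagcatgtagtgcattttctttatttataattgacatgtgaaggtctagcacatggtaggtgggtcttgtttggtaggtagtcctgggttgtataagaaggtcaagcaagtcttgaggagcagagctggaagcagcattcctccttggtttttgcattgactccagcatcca
Slco1b2: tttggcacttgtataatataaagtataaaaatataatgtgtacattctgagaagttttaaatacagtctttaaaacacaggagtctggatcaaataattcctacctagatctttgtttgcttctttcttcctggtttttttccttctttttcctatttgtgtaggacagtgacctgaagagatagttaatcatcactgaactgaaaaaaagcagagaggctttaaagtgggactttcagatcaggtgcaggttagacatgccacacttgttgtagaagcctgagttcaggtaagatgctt
Slc10a1: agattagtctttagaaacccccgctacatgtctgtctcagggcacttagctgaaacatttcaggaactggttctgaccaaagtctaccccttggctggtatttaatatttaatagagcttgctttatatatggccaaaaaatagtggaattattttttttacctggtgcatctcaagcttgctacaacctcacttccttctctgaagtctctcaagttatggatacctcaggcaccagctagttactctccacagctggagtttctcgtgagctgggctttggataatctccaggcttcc
Slc22a5: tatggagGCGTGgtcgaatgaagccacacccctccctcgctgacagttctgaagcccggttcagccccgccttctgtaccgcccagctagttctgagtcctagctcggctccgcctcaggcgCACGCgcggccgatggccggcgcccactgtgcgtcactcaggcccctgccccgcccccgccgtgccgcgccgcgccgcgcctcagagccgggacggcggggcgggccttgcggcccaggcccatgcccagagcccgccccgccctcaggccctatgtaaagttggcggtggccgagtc

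Motifs were searched as exact letters on both strands of all 9 windows, and none of the matches overlapped another. The antioxidant response element core TGACNNNGC, which Nrf2 binds with a small Maf protein, had no match in any of the 9 windows, while 12.4% of 32851 promoter windows of the same length held one. GCGTG was found in 1 window, that of Slc22a5, with matches that begin 243 and 128 bases before the start, and in 32.4% of all windows. The Slc22a5 window was 72.7% G or C, against 35.3% in the Slco1b2 window. A missing match says only that these letters are not in these 300 bases.

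As a check of genotype, Nfe2l2 read 4.89 ± 0.10 in Nrf2 null livers with CDDO-Im and 4.71 ± 0.24 in Nrf2 null livers with vehicle, against 8.73 ± 0.39 and 8.60 ± 0.09 in wild type livers with CDDO-Im and with vehicle (log2, mean ± SD, n = 3 each). The hepatocyte list (10 of 10 markers measured, among them Alb, Ttr and Hnf4a) had 0 of 30 values below the array median in each of the 4 groups. Transcripts of pancreatic acinar cells (10 of 13 markers measured) averaged 10.62 in wild type vehicle replicate 3 and 8.96 in Nrf2 null vehicle replicate 2, against 6.20 to 6.53 on the other 10 arrays. Their part in the results was not tested. Values without these arrays stand beside the results of the 7 genes that they change. For other genes and lists mostly counts or ranges over the alternative fits are given. Marker lists for kidney tubule and intestine, which also express several of the 7 carriers, had no gene that passed in any comparison, and the same held for the stellate and cholangiocyte lists. The few other marker genes that passed were Fgb, which fell with CDDO-Im in Nrf2 null and in wild type livers (-0.46 and -0.67, lost in 8 and 3 of 12 fits that left out 1 array), Lyve1, an endothelial receptor, and Marco, a macrophage receptor. Lyve1 rose with CDDO-Im in wild type and was lower in Nrf2 null than in wild type with CDDO-Im, and it lay below the array median on all 9 arrays outside wild type CDDO-Im. Marco was lower in Nrf2 null with CDDO-Im (-1.32, lost in 4 of 12 fits that left out 1 array).

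CDDO-Im was first set against vehicle in Nrf2 null livers. Slco1a1, Slco1b2, Slc10a1 and Slco2b1, which carry organic anions, rose 1.54-fold to 2.20-fold, and all 7 genes had a positive difference. In this comparison 4 of the 7 genes passed limma's moderated test, all upward, where 3.58% of all genes passed upward and 5.9% in either direction. The same 4 genes had groups that did not overlap, where 11.6% of all genes lay apart upward. The median difference over the 7 genes was 0.62, beside -0.0050 over all genes. The 8 Kupffer cell markers had a median difference of 0.40 here, none of them passing, and their part in the result was not tested. In whole liver, more cells of a type and more RNA per cell cannot be told apart.

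**Figure D1:**
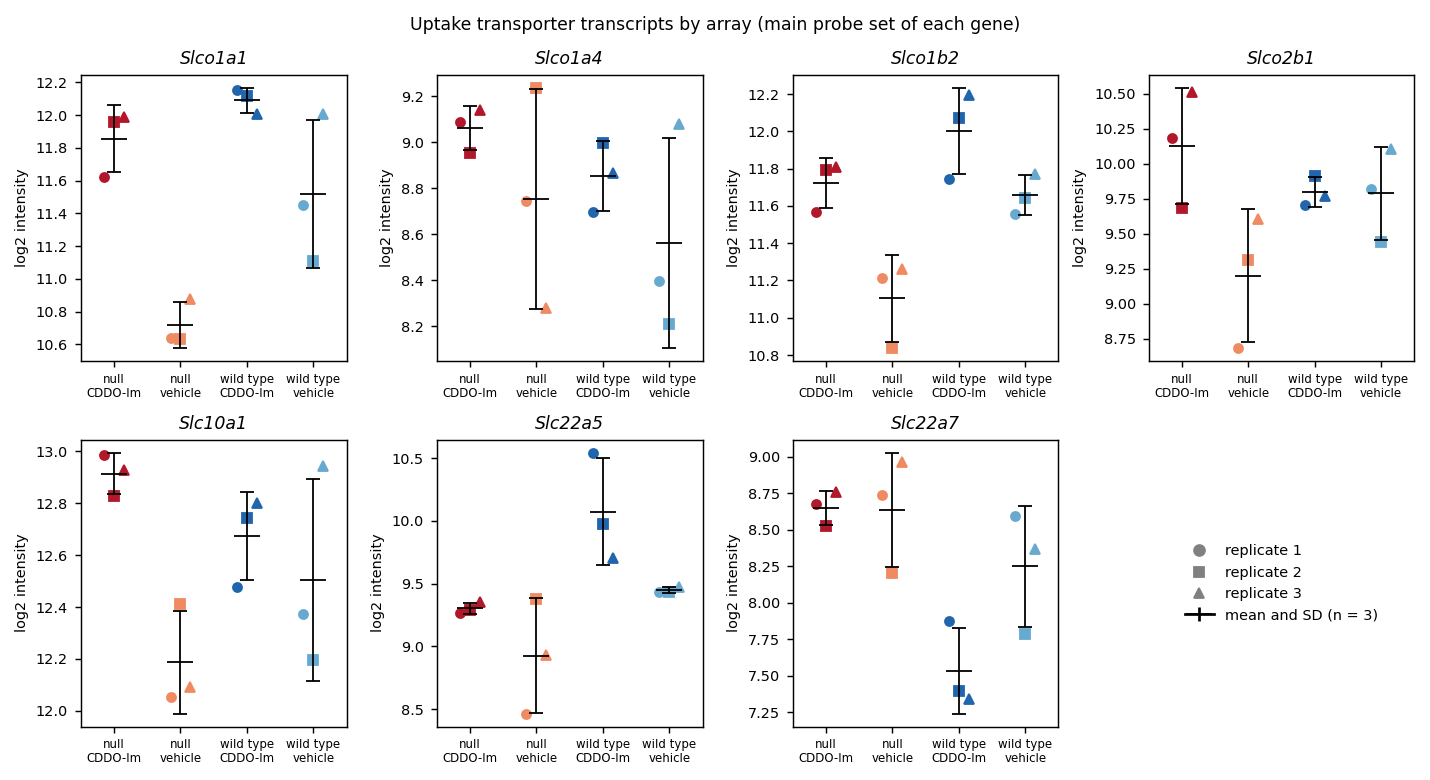
Log2 intensity of the main probe set of each gene on the 12 arrays, with Nrf2 null CDDO-Im, Nrf2 null vehicle, wild type CDDO-Im and wild type vehicle from left to right; marker shapes give the replicate, and bars give the mean and SD of 3 arrays. Slco1a1, Slco1b2, Slco2b1 and Slc10a1 lay higher with CDDO-Im than with vehicle on all 3 Nrf2 null arrays. Wild type vehicle replicate 3 was the highest wild type vehicle array in every gene except Slc22a7.

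Slco1a1 (Entrez Gene 28248, chromosome 6) encodes Oatp1a1, a carrier of bile acids and steroid conjugates that is known in mouse liver for higher expression in males. Its transcript read 11.62, 11.96 and 11.99 on the Nrf2 null CDDO-Im arrays, against 10.64, 10.63 and 10.88 on the Nrf2 null vehicle arrays. The wild type CDDO-Im arrays read 12.15, 12.12 and 12.005, against 11.45, 11.11 and 12.004 on the wild type vehicle arrays. The Nrf2 null vehicle arrays were thus lowest, below all other groups, and wild type vehicle replicate 3 read as high as a CDDO-Im array. In Nrf2 null livers the rise was 1.14 ± 0.18 (SE, n = 3 per group), or 2.20-fold, with a Benjamini-Hochberg adjusted p = 0.00958 by limma. This call held in 11 of 12 fits that left out 1 array and ended without Nrf2 null CDDO-Im replicate 3 (1.07, adjusted p = 0.0526). The second probe set of Slco1a1, with its own probes, differed by 1.16 ± 0.23 (adjusted p = 0.0215 over all probe sets).

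Slco1b2 (Entrez Gene 28253, chromosome 6) encodes Oatp1b2, which brings bilirubin, unconjugated bile acids and statins into mouse hepatocytes. It read 11.57, 11.79 and 11.81 in Nrf2 null livers with CDDO-Im, against 11.21, 10.84 and 11.26 with vehicle. In wild type livers it read 11.75, 12.07 and 12.20 with CDDO-Im, against 11.56, 11.64 and 11.77 with vehicle. As for Slco1a1, the Nrf2 null vehicle arrays lay below every other array. The Nrf2 null difference was 0.62 ± 0.14 (SE), or 1.54-fold, with adjusted p = 0.0242. The call ended without Nrf2 null vehicle replicate 1 (0.061) or 2 (0.0813) and without Nrf2 null CDDO-Im replicate 2 (0.0853) or 3 (0.101), these being adjusted p-values. It also ended without both acinar arrays (0.49, adjusted p = 0.0523) and with the mean of the gene's probe sets, which gave 0.39 (adjusted p = 0.0802). The main probe set, like that of Slco2b1, carries the maker's mark for probes shared between related transcripts. Another 2 bright probe sets of the gene differed by 0.44 and 0.74 without passing (adjusted p = 0.092 and 0.108), and the 2 dimmest by 0.11 and 0.03.

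Slc10a1 (Entrez Gene 20493, chromosome 12) read 12.99, 12.83 and 12.93 in Nrf2 null livers with CDDO-Im, against 12.05, 12.41 and 12.09 with vehicle. In wild type livers its values were 12.48, 12.74 and 12.80 with CDDO-Im, against 12.37, 12.20 and 12.94 with vehicle. The Nrf2 null CDDO-Im group was the highest of the 4 by mean and did not overlap wild type CDDO-Im, its neighbour in that order, whereas the other neighbouring groups overlapped. Its rise in Nrf2 null livers was 0.73 ± 0.17 (SE), or 1.66-fold (adjusted p = 0.0295), and 0.74 ± 0.16 in a second probe set (adjusted p = 0.0291). Leaving out Nrf2 null vehicle replicate 1 or 3 ended the call (adjusted p = 0.116 and 0.0677), and so did leaving out Nrf2 null CDDO-Im replicate 1, 2 or 3 (adjusted p = 0.0715, 0.0727 and 0.103).

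Slco2b1 (Entrez Gene 101488, chromosome 7) encodes Oatp2b1, a carrier of sulfated steroids and drugs found in liver and intestine. It read 10.18, 9.69 and 10.51 in Nrf2 null livers with CDDO-Im, against 8.68, 9.31 and 9.61 with vehicle. In wild type livers the values were 9.71, 9.91 and 9.77 with CDDO-Im, against 9.82, 9.44 and 10.11 with vehicle. The Nrf2 null groups lay apart by a small gap, while groups next to each other in the order of means overlapped. The Nrf2 null difference of 0.93 ± 0.25 (SE), or 1.90-fold, stood at the threshold (adjusted p = 0.0498), and 9 of 12 fits that left out 1 array did not pass, with adjusted p up to 0.193 without Nrf2 null CDDO-Im replicate 3. Only without Nrf2 null vehicle replicate 3 or wild type vehicle replicate 2 or 3 did the call hold. The call also ended with the compared arrays alone, without both acinar arrays and with a trended robust prior (adjusted p = 0.0762, 0.0598 and 0.053), and the mean of the gene's probe sets gave a smaller difference of 0.53, which passed. A second bright probe set differed by 0.70 ± 0.15 and passed over all probe sets (adjusted p = 0.0253), where the main one did not (0.0636), and a dimmer probe set differed by -0.03.

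The other 3 genes did not pass in Nrf2 null livers. Slco1a4 (Entrez Gene 28250, chromosome 6) encodes Oatp1a4, a carrier of organic anions and cardiac glycosides that mouse liver is known to raise when Nr1i2 is activated. It read 9.09, 8.96 and 9.14 in Nrf2 null livers with CDDO-Im, against 8.75, 9.24 and 8.28 with vehicle, and the groups overlapped. In wild type livers it read 8.70, 8.997 and 8.87 with CDDO-Im, against 8.40, 8.21 and 9.08 with vehicle. Its differences were 0.31 in Nrf2 null (95% interval -0.21 to 0.82, adjusted p = 0.552) and 0.29 in wild type (-0.23 to 0.81, adjusted p = 0.692), and all neighbouring groups overlapped in the order of their means. The highest vehicle array of each genotype was the one that carried acinar transcripts. Without both of those arrays Slco1a4 differed by 0.55 in Nrf2 null (adjusted p = 0.0449) and by 0.55 in wild type (adjusted p = 0.0423).

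Slc22a5 (Entrez Gene 20520, chromosome 11), the carnitine carrier that is defective in the juvenile visceral steatosis mouse, read 9.27, 9.29 and 9.35 in Nrf2 null livers with CDDO-Im, against 8.47, 9.38 and 8.93 with vehicle. Wild type livers read 10.54, 9.97 and 9.71 with CDDO-Im, against 9.43, 9.43 and 9.48 with vehicle. The Nrf2 null difference of 0.38 had a 95% interval of -0.10 to 0.85 (adjusted p = 0.391). Slc22a7 (Entrez Gene 108114, chromosome 17), read by a single probe set, gave 8.67, 8.52 and 8.76 in Nrf2 null livers with CDDO-Im, against 8.74, 8.20 and 8.96 with vehicle. This difference was 0.02 (-0.48 to 0.51, adjusted p = 0.984), and the CDDO-Im values fell within the span of the vehicle values.

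In wild type livers none of the 7 genes passed with CDDO-Im against vehicle by limma's adjusted test, where 1.82% of all genes passed. An unadjusted p under 0.05 was found for 4 of the 7. The share of all genes under it was not counted, so this number is not read as an excess. The median difference was 0.29, beside 0.0058 over all genes, and 6 of the 7 differences were positive. Slc22a5 differed by 0.63 ± 0.22 (SE, adjusted p = 0.198), with all 3 CDDO-Im arrays above the 3 vehicle arrays, and by 0.39 without CDDO-Im replicate 1 (adjusted p = 0.489). Slco1a1 differed by 0.57 ± 0.18 (adjusted p = 0.162) with groups that nearly met, and these were the 2 genes of 7 whose groups did not overlap, where 8.42% of all genes lay apart upward. Slco1b2 differed by 0.35 (adjusted p = 0.268), Slc10a1 by 0.17 (adjusted p = 0.768, 95% interval -0.20 to 0.54) and Slco2b1 by 0.01 (adjusted p = 0.996, 95% interval -0.54 to 0.55). Slc22a7 had the only negative difference, with 7.87, 7.40 and 7.34 on the CDDO-Im arrays, against 8.59, 7.79 and 8.37 on the vehicle arrays. Its difference was -0.71 ± 0.23 (adjusted p = 0.154), and 1 CDDO-Im array overlapped the vehicle group.

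Wild type vehicle replicate 3, the array with the most acinar transcript, weighed on this comparison. It read 0.73, 0.78, 0.66 and 0.48 above the mean of the other wild type vehicle arrays in Slco1a1, Slco1a4, Slc10a1 and Slco2b1. In Slco1b2, Slc22a7 and Slc22a5 it read 0.17, 0.18 and 0.04 above that mean. Without it Slco1a1 was 0.81 higher with CDDO-Im and passed (adjusted p = 0.00292), as the only one of the 7 genes. Without wild type vehicle replicate 2 the Slco1a1 difference was 0.36 (adjusted p = 0.531). Without both acinar arrays Slco1a1 (adjusted p = 0.0049) and Slco1a4 passed, and with arrays weighted by their fit Slco1a1, Slco1b2 and Slc22a7 did (0.65, 0.42 and -0.89, with adjusted p = 0.01, 0.0459 and 0.0227). The number of all genes that passed in wild type moved as well. It was 332 in the main fit, 104 to 1385 with 1 array left out and 109 to 2023 under the other alternatives.

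**Figure D2:**
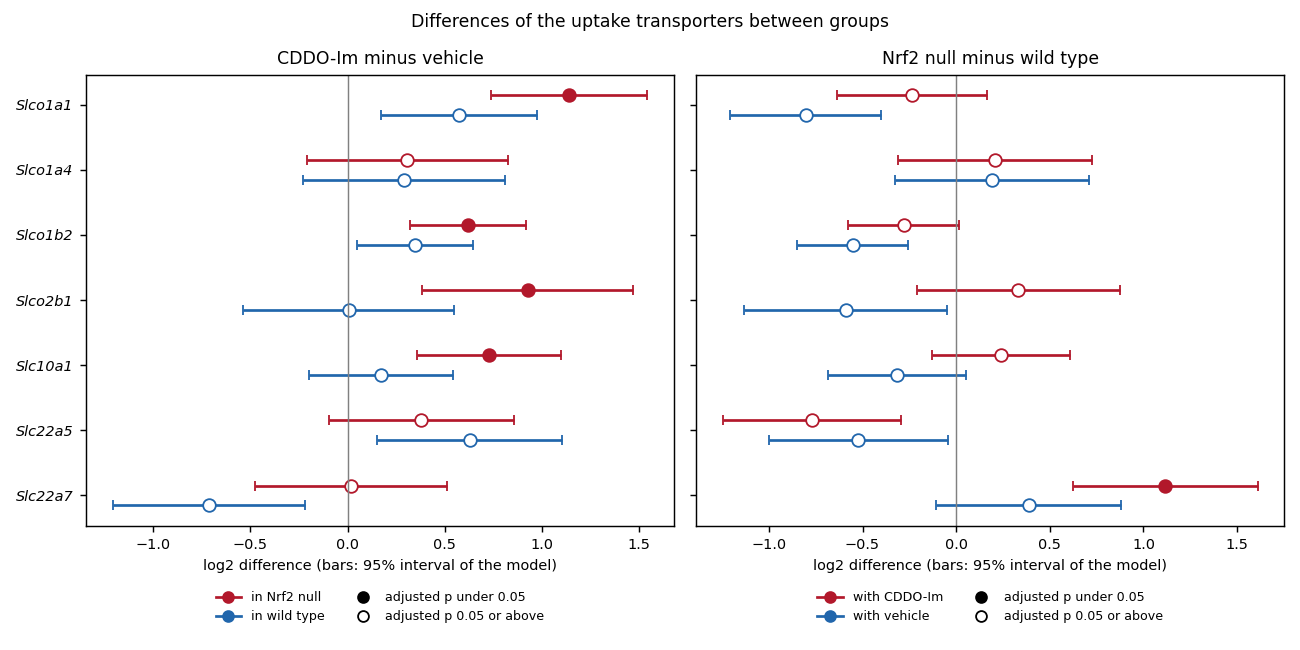
Log2 differences of the 7 genes with the 95% interval of the model; left, CDDO-Im minus vehicle in Nrf2 null (red) and wild type (blue); right, Nrf2 null minus wild type with CDDO-Im (red) and with vehicle (blue). Filled points passed at an adjusted p under 0.05: Slco1a1, Slco1b2, Slco2b1 and Slc10a1 in Nrf2 null, and Slc22a7 between genotypes with CDDO-Im.

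Nrf2 null livers were then set against wild type livers with CDDO-Im given to both. Slc22a7 was 2.17-fold higher in Nrf2 null livers, at 8.65 ± 0.12, against 7.54 ± 0.29 in wild type livers (log2, mean ± SD, n = 3 each), and was the 1 gene of 7 that passed (1.12 ± 0.23, SE, adjusted p = 0.0332). Of all genes 1.45% passed here and 0.621% passed upward. All 3 Nrf2 null arrays lay above the 3 wild type arrays. The call ended without wild type CDDO-Im replicate 2 (adjusted p = 0.13) or 3 (0.137) and without Nrf2 null CDDO-Im replicate 1 (0.106), 2 (0.0696) or 3 (0.107), while the difference stayed between 1.02 and 1.28. Slc22a5 leaned the other way, at 9.30 ± 0.04 in Nrf2 null livers and 10.07 ± 0.43 in wild type livers, and its difference of -0.77 ± 0.22 did not pass (adjusted p = 0.134). A second Slc22a5 probe set differed by -0.98 ± 0.22 (adjusted p = 0.0701 over all probe sets). Groups lay apart for 4 of the 7 genes, Slc22a7 and Slc10a1 upward and Slco1a1 and Slc22a5 downward, where 16.8% of all genes lay apart. The differences of the remaining 5 genes ran from -0.28 in Slco1b2 to 0.33 in Slco2b1, with adjusted p-values of 0.484 or more.

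With vehicle given to both genotypes none of the 7 genes passed by limma's adjusted test, where 0.39% of all genes passed. An unadjusted p under 0.05 was found for 4 of the 7. The share of all genes under it was not counted, so this number is not read as an excess. The median difference was -0.52, beside 0.02 over all genes, and 5 of the 7 were negative. All 8 Kupffer cell markers were also negative here, from -0.62 to -0.10 with a median of -0.36, none passed, and their part in the result was not tested. Slco1a1 read 10.72 ± 0.14 in Nrf2 null livers and 11.52 ± 0.45 in wild type livers, a difference of -0.80 ± 0.18 (SE, adjusted p = 0.0939). Slco1b2 was at 11.10 ± 0.23 in Nrf2 null livers and 11.66 ± 0.11 in wild type livers (-0.55 ± 0.14, adjusted p = 0.115). For these 2 genes and Slc22a5 (-0.52, adjusted p = 0.329) every Nrf2 null value was under every wild type value, where 8.49% of all genes lay apart downward. Slco1a1 passed without wild type vehicle replicate 2 (-1.01, adjusted p = 0.0409), and its difference was -0.56 without wild type vehicle replicate 3. Both Slco1a1 and Slco1b2 passed with weighted arrays (-0.76 and -0.59, adjusted p = 0.0105 and 0.0167). Of all genes 71 passed with vehicle in the main fit. That number was 19 to 219 with 1 array left out and 16 to 1477 under the other alternatives. Slc22a5 had no overlap between genotypes under either treatment, with 9.38 as the highest Nrf2 null value and 9.43 as the lowest wild type value.

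Whether the compound acted differently in the 2 genotypes was tested as an interaction, the Nrf2 null effect of CDDO-Im minus the wild type effect. None of the 7 genes passed by limma's adjusted test, where 0.137% of all genes did. Of the 7 genes 4 had an unadjusted p under 0.05. The share of all genes under it was not counted, so this number is not read as an excess. The differences were 0.92 in Slco2b1 (95% interval 0.15 to 1.69), 0.73 in Slc22a7 (0.03 to 1.43), 0.57 in Slco1a1 (0.0019 to 1.14) and 0.56 in Slc10a1 (0.04 to 1.08), with adjusted p = 0.606, 0.681, 0.704 and 0.668. Slco1a4 had 0.02 (-0.72 to 0.75) and Slc22a5 had -0.25 (-0.92 to 0.42). Nqo1, a known Nrf2 target, passed this test (adjusted p = 5.04e-06), and it lay below the array median on all 9 arrays outside wild type CDDO-Im, so the size of its difference is not given. So the 4 calls in Nrf2 null livers and the lack of calls in wild type livers were not shown to differ between the genotypes.

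Slco1b2, Slco1a4 and Slco1a1 lie in 1 cluster on chromosome 6, in the order Slco1c1, Slco1b2, Slco1a4, Slco1a1, Slco1a6 and Slco1a5. Slco1c1, Slco1a6 and Slco1a5 read below the array median on all 12 arrays, and their CDDO-Im differences in Nrf2 null livers were 0.05, -0.02 and -0.09. Within the cluster, Slco1a1 and Slco1b2 passed in Nrf2 null livers and Slco1a4 between them did not. Without both acinar arrays this order of calls changed, as Slco1a4 passed (0.55, adjusted p = 0.0449 by limma) and Slco1b2 did not. The 2 flanking genes followed each other over the 12 arrays with Pearson's r = 0.88, while Slco1a4 had r = 0.33 with Slco1a1 and 0.07 with Slco1b2. These correlations are descriptions over arrays that share the 4 groups. They include Nrf2 null vehicle replicate 2, which carried acinar transcripts. That array read 0.73 above the mean of the other Nrf2 null vehicle arrays in Slco1a4. In Slco1a1 and Slco1b2 its deviation was -0.12 and -0.40.

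Genes whose values were most like a member's over the 12 arrays were taken as a description, without a test. Slco1a1 was followed most closely by Slc25a30, a mitochondrial carrier (Pearson's r = 0.99), and Calcoco1 (0.98). For Slco1b2 they were Nadk2, the mitochondrial NAD kinase (0.96), and Serpina6, which encodes corticosteroid-binding globulin (0.95). Slc10a1 resembled Sar1b, a GTPase of vesicles that leave the endoplasmic reticulum (0.96), and Car5a, a mitochondrial carbonic anhydrase (0.93). Slco2b1 was nearest to Dag1 (0.96) and Ranbp10 (0.94), and Slc22a5 to Hsdl2 (0.95) and Nsfl1c (0.95). The genes nearest to Slc22a7 were Ephb4 (0.92) and Clec4g, a lectin of sinusoidal endothelium (0.91). Those nearest to Slco1a4 were Cldn6 and Tenm2 (both 0.89). Both had group means under the median of every array, 4.51 to 4.67 in Cldn6 and 5.64 to 5.76 in Tenm2. Among the members, Slc22a7 ran against Slc22a5 (r = -0.69) and Slco1b2 (-0.56).

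None of 11 other Slco genes passed in any of the 5 comparisons, and their median CDDO-Im difference was -0.07 in Nrf2 null and -0.03 in wild type. Among them Slco1c1, Slco1a6 and Slco1a5 read below the array median on all 12 arrays. At such low signal a lack of calls cannot be read as a lack of response. Of 22 other Slc22 and Slc10 genes 2 rose with CDDO-Im in each genotype, Slc22a30 by 1.35 in Nrf2 null and 1.45 in wild type (adjusted p = 0.0318 and 0.0449) and Slc22a18 by 0.53 and 0.65 (adjusted p = 0.0414 and 0.0324), and none passed in the other comparisons. Slc22a30 read 8.60, 9.29 and 9.52 in Nrf2 null livers with CDDO-Im, against 7.46, 7.41 and 8.48 with vehicle. In wild type it read 9.93, 9.88 and 9.76 with CDDO-Im, against 8.08, 8.13 and 9.01 with vehicle. Its groups were apart in both genotypes. Both calls of each gene depended on single arrays, with adjusted p up to 0.131 and 0.21 for Slc22a30 and 0.13 and 0.176 for Slc22a18 in Nrf2 null and wild type, in each case without vehicle replicate 1 of that genotype except Slc22a30 in Nrf2 null, where it was without CDDO-Im replicate 3.

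Efflux carriers of hepatocytes were counted beside the uptake genes. Some face bile, and others, Abcc3 and Abcc4 among them, share the sinusoidal side with the uptake carriers. Of 15 genes 3 rose with CDDO-Im in Nrf2 null and 5 in wild type, against 4 and 0 of the 7 uptake genes, a contrast that was not tested. Of all genes 5.9% passed in Nrf2 null and 1.82% in wild type, shares that also stand beside the lists below. The 15 differences ran from -1.18 to 1.0001 in Nrf2 null and from -1.21 to 2.98 in wild type. In Nrf2 null these were Abcb11, the bile salt export pump (0.95, adjusted p = 0.017), Abcb4, which exports phosphatidylcholine into bile (0.80, adjusted p = 0.0352), and Slc47a1, an exporter of organic cations (1.0001, adjusted p = 0.0443), calls that ended in 3, 8 and 8 of 12 fits that left out 1 array. In wild type Abcc3, which returns conjugates to blood, rose by 2.98 (adjusted p = 0.000941) whichever array was left out, and Abcg2, Abcc2, Abcc4 and Abcg5 rose by 1.06, 0.81, 0.88 and 0.53, calls that ended in 2, 4, 3 and 9 of 12 fits that left out 1 array. Between genotypes with CDDO-Im 2 were lower in Nrf2 null, Abcc3 by -4.36 and Abcc4 by -1.06, where Abcc4 lay below the array median on 10 of the 12 arrays. With vehicle and in the interaction none passed, with Abcc3 at -1.69 and -2.66 (adjusted p = 0.0727 and 0.118). The interaction count was 1 without wild type vehicle replicate 3, without both acinar arrays and with array weights, and the vehicle count was 1 without wild type vehicle replicate 2 or 3 and with array weights. With 1 array left out the Nrf2 null count ran from 0 (without Nrf2 null vehicle replicate 1 or 2, or Nrf2 null CDDO-Im replicate 3) to 6, and the wild type count from 1 (without wild type vehicle replicate 1) to 9 (without wild type vehicle replicate 3).

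**Figure D3:**
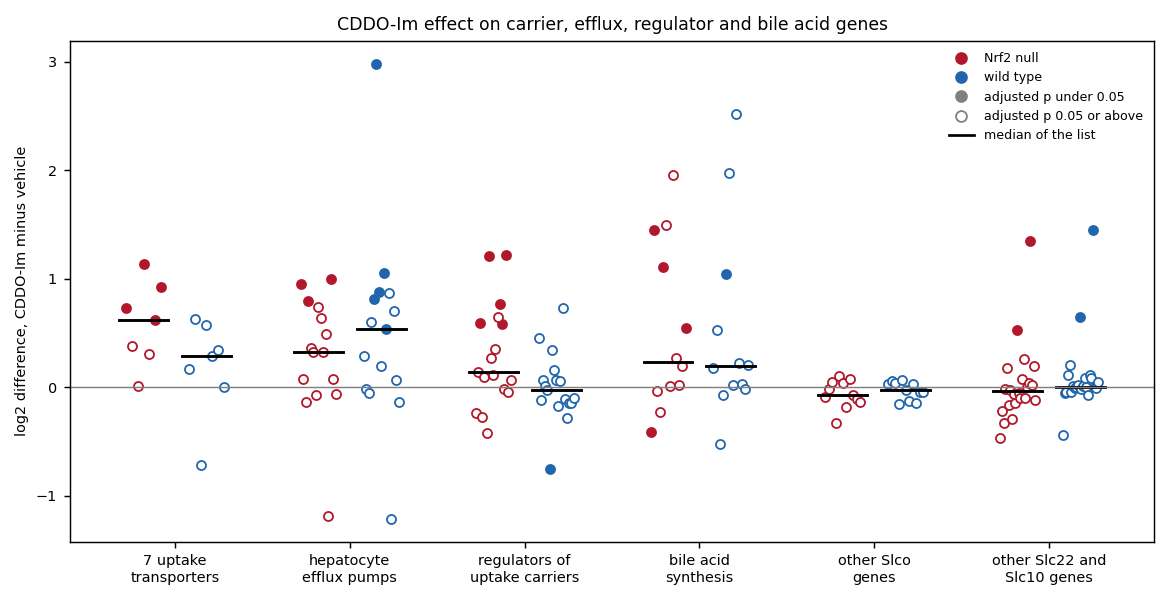
CDDO-Im minus vehicle in log2 for each measured gene of 6 lists, in Nrf2 null livers (red, left of each pair) and wild type livers (blue, right of each pair); filled points had an adjusted p under 0.05 and black bars are list medians. The 7 uptake genes had medians of 0.62 in Nrf2 null and 0.29 in wild type, the 15 efflux carriers 0.32 and 0.53, and the other Slco genes -0.07 and -0.03. Among the other Slco genes, Slco1c1, Slco1a6 and Slco1a5 read below the array median on all 12 arrays.

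Of 17 measured regulators of uptake genes 5 rose with CDDO-Im in Nrf2 null, with a list median of 0.14. Ppara, the fatty acid receptor known in rodents to raise Slc22a5, rose by 1.22 (adjusted p = 0.0106, and 0.0546 without Nrf2 null CDDO-Im replicate 3). Ghr, the growth hormone receptor, rose by 1.21, Nr1i3, the receptor CAR, by 0.77, and the glucocorticoid receptor Nr3c1 by 0.58 (adjusted p = 0.0153, 0.0264 and 0.0329). Cebpa rose by 0.59 (adjusted p = 0.0405, lost in 7 of 12 fits that left out 1 array). Each of Ghr, Nr1i3 and Nr3c1 lost its call in 4 of 12 fits that left out 1 array, with the highest adjusted p without Nrf2 null CDDO-Im replicate 3 (0.0706, 0.114 and 0.135). In wild type 1 regulator passed, Foxa3, which fell by 0.75 (adjusted p = 0.0067). Foxa3 read 9.97 ± 0.25 in Nrf2 null livers with CDDO-Im and 8.94 ± 0.11 in wild type livers with CDDO-Im (1.03, adjusted p = 0.000594), and both of these calls held whichever array was left out. With vehicle Foxa3 was also higher in Nrf2 null (0.70, adjusted p = 0.0288) and Ppara lower (-1.13, adjusted p = 0.0414), and these calls ended in 5 and 7 of 12 fits that left out 1 array, with adjusted p up to 0.133 for Foxa3 without Nrf2 null vehicle replicate 1 and 0.158 for Ppara without wild type vehicle replicate 1. Ahr was lower in Nrf2 null with CDDO-Im (-0.75, adjusted p = 0.0476), a call that 10 of 12 such fits did not keep. None of the regulators passed in the interaction.

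Genes that make the cargo of these carriers were counted as well. Of 12 genes of bile acid synthesis and conjugation 3 rose and 1 fell with CDDO-Im in Nrf2 null, and 1 rose in wild type. With 1 array left out the wild type count ran from 0 to 4. Cyp27a1, which oxidises the sterol side chain, rose by 1.11 in Nrf2 null (adjusted p = 0.00996, held whichever array was left out) and by 1.05 in wild type (adjusted p = 0.0132, lost in 3 of 12 such fits, with 0.0822 without wild type vehicle replicate 1). The others in Nrf2 null were Slc27a5 (0.54), Akr1d1 (1.45) and Acox2, which fell (-0.42), and these calls ended in 1, 10 and 4 of 12 fits that left out 1 array. Between genotypes with CDDO-Im Amacr was higher in Nrf2 null (1.74, a call lost in 9 of 12 such fits) and Acox2 lower (-0.67, lost in none), and none passed with vehicle or in the interaction. With vehicle this count was 0 to 2 with 1 array left out and 0 to 4 under the other alternatives. Of 9 genes of carnitine synthesis and use 2 rose with CDDO-Im in Nrf2 null and none passed in any other comparison. In wild type the count was 0 to 2 with 1 array left out. Bbox1, the last enzyme of carnitine synthesis, rose by 1.11, with 11.57, 11.69 and 11.75 in Nrf2 null livers with CDDO-Im against 10.28, 10.78 and 10.62 with vehicle (adjusted p = 0.00958, and 0.0514 without Nrf2 null CDDO-Im replicate 3). Shmt1 rose by 0.54, a call lost in 5 of 12 such fits. Of 9 measured genes known for higher levels in male mouse liver, Slco1a1 was the 1 that passed with CDDO-Im in Nrf2 null. C6 was the 1 that passed between genotypes with CDDO-Im (1.49, adjusted p = 0.0154, lost in 2 of 12 such fits with adjusted p up to 0.0695). Over all alternative fits the count of this list ran from 0 to 3 in each of these comparisons. It was 0 in wild type and with vehicle, and there it ran up to 3 and 4.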

How the data were processed

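Total RNA of mouse liver was labelled with biotin and hybridised to 12 single-colour Affymetrix arrays, per the labels. The deposited log2 values, 1 per probe set and array, were made by the authors with RMA, per the submitters' processing notes, which give no version. RMA makes the distributions of arrays alike. Precision is limited by 3 arrays per group. Of 45101 probe sets 34945 named 1 gene. A gene was read from its brightest such probe set over 12 arrays, which gave 18193 genes.

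The linear model in limma 3.58.1 under R 4.3.3 had a mean for each of the 4 groups (lmFit and eBayes on 12 arrays, two-sided, 8 residual and 3.81 prior degrees of freedom). Calls needed a Benjamini-Hochberg adjusted p under 0.05 over all genes. Intervals are 95%. On simulated data for CDDO-Im in wild type over 18193 genes, 90 of 100 genes changed by 1 and 99 of 100 changed by 2 were called, with 7 false calls. The simulated noise was normal and independent for each gene and array, with the residual SD of the real genes. No simulated array deviated as a whole, so these counts do not give the power in the real data.

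Members and lists (other Slco, other Slc22 and Slc10, efflux carriers, regulators, bile acid, carnitine and male-biased genes, and markers of hepatocytes, Kupffer, endothelial, stellate, cholangiocyte, acinar, kidney and intestinal cells) were chosen with earlier results of these data known. Named were the 7 members, Nfe2l2, Nqo1, up to 4 called genes per list with the smallest adjusted p, and the 2 genes nearest to each member by Pearson's r over 12 arrays, leaving out clone and model names. Cebpa and Abcg5 were outside that limit and were named after their values were seen. Promoters and gene order came from RefSeq (GRCm38.p6), and the build behind the probe sets is not given in the sources used here. A further motif is not reported here. Alternatives were a replicate block, leaving out each array, the compared arrays alone, leaving out both acinar arrays, array weights, quantile scaling, a filter on dim genes, the mean of a gene's probe sets, every probe set tested, a trended robust prior and a threshold of 0.01.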

Additional observations from a re-analysis of the deposited data

How the results depend on the processing

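Of the 7 genes 4 passed with CDDO-Im in Nrf2 null livers, and the count was 1 at an adjusted p under 0.01 and 0 to 4 when 1 array was left out. Under the 10 other alternatives the count ran from 1 to 4, and Slco2b1 and Slco1b2 lost their calls in 5 and 3 of them. Without both acinar arrays Slco2b1 and Slco1b2 did not pass and Slco1a4 did. The count of 0 in wild type became 2 without both acinar arrays and 3 with array weights, and 0 to 1 with 1 array left out. Between genotypes with CDDO-Im the count of 1 became 0 at an adjusted p under 0.01 and 0 to 1 with 1 array left out. With vehicle the count of 0 became 2 with array weights and 0 to 1 with 1 array left out. The interaction count was 0 under every alternative run, and the fit on compared arrays alone was not run for it because it needs all 12. The cause of these shifts was not tested.

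Small differences changed sign and did not pass either way. With 1 array left out, Slco2b1 in wild type ran from -0.17 to 0.16, Slc22a7 in Nrf2 null from -0.20 to 0.18, Slco1a4 between genotypes with vehicle from -0.050 to 0.45 and Slco1a4 in the interaction from -0.24 to 0.26. Slc22a7 in Nrf2 null was -0.20 without both acinar arrays and -0.054 with quantile scaling. The Slco1a4 interaction was -0.00061, -0.32 and -0.059 without both acinar arrays, with array weights and with quantile scaling.

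With the replicate number as a block the counts stayed at 4, 0, 1, 0 and 0, and all genes called numbered 1000, 323, 231, 80 and 20, against 1074, 332, 263, 71 and 25 without it, while 1 efflux carrier passed with vehicle and 1 in the interaction, against 0 and 0. Arrays of the same number deviated together (correlation over 0.1) in 4 of 18 pairs, so the number was not taken to pair them. With 1 array left out, all genes called ran over 97 to 1615, 104 to 1385, 151 to 464, 19 to 219 and 15 to 46, and under the other alternatives over 97 to 1897, 109 to 2023, 123 to 411, 16 to 1477 and 15 to 89. Calls were thus lost over all genes in some fits, so a lost call need not be particular to its gene. Over all alternatives the regulators called with CDDO-Im in Nrf2 null (5) ran from 0 to 7, the efflux carriers in Nrf2 null (3) from 0 to 7 and in wild type (5) from 1 to 9, the bile acid genes in Nrf2 null (4) from 1 to 6 and in wild type (1) from 0 to 4, the other Slc22 and Slc10 genes from 0 to 3 and the carnitine genes in Nrf2 null (2) from 0 to 2.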
